A study of Mus musculus with 9 samples.

Results

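The genes described here are Gm46329, 2610300M13Rik, Gm3791, Serpina1b, Nrgn, C5ar1 and Ddit4l, 7 of the 30579 genes of the deposited table. They were chosen by name, from their levels in these same libraries, as genes that mark the libraries labelled aged Thbs1 knockout. Their difference between those libraries and the controls is therefore given as a description, with no test. Of the 7 genes, 6 fitted that description and Ddit4l did not.

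The data are RNA sequencing of mesenchymal stromal cells, which support blood formation in the marrow, from mouse long bones. The 9 libraries formed 3 groups of 3: controls aged 3 months (young controls), controls aged 18 months (aged controls), and 18 month mice whose genotype is labelled Thbs1 knockout. All mice received an antibody to VE-cadherin, a protein of endothelial cells, 10 minutes before death, and the cells were sorted into TRIzol-LS; 2 ng of total RNA entered each SMART-Seq v4 library. The sources used here give neither the strain, sex, sort gates and knockout allele nor whether each library came from a separate mouse. The p-values therefore measure the spread between these libraries alone, which may be technical. Levels are FPKM, read fragments divided by transcript length in kilobases and by the library's own total.

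Thbs1 is the gene of thrombospondin-1, a glycoprotein of the extracellular matrix. Its RNA checks the label and went against it. Thbs1 stood at 74.98, 73.11 and 58.03 FPKM in the young and at 35.56, 41.89 and 36.85 in the aged controls. The libraries labelled aged Thbs1 knockout had 24.28, 44.55 and 37.05. The last 2 groups overlapped, and the mean of the labelled libraries was 92.6% of that of the aged controls (exact two-sided permutation test, p = 0.9, where 3 libraries against 3 cannot go below 0.1; limma log2 difference −0.15, SE 0.256, adjusted p = 0.801). A value per gene does not show whether the part removed by the allele was read. The name "labelled-knockout libraries" is used below for this reason, and no direction is assigned to loss of Thbs1.

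Estimated depth, the number behind each library's scaling, was 17.66 to 27.5 M reads (M, mega). Labelled-knockout replicate 2 had 13503 genes above 0, and the other libraries had 16557 to 18382. Of 10 marrow stromal markers 10 were tested. Their summed level, mostly Cxcl12 and Adipoq, was 8510 to 9591 FPKM in the young controls, 4282 to 6232 in the aged controls and 6597 to 9071 in the labelled-knockout libraries, and Nt5e, the lowest, was at 0.52 to 6.37 FPKM. Replicate 2 of the labelled-knockout libraries stood apart, with correlations to the other 8 libraries of 0.738 to 0.811 (log2 values across genes), while the other libraries correlated with each other at 0.773 or above. Igkc, an antibody light chain of plasma cells, ran from 34.83 to 1476.77 FPKM in the young controls and from 32970.31 to 210878.3 in the aged controls. In labelled-knockout replicates 1 and 3 it was at 1057.56 and 19821.37, and it reached 235332.5 in replicate 2. Since every value is divided by the library's total, a level this high lowers all other genes of its library. The median log2 difference of all tested genes between aged and young controls was −0.28 as deposited and 0.02 after the libraries were rescaled by their median ratio. Between labelled-knockout libraries and aged controls it was 0.07 and −0.08.

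The 7 genes fall into 4 kinds. Gm46329 and 2610300M13Rik are annotated as long intergenic non-coding RNAs and Gm3791 as a processed pseudogene, a copy of a spliced RNA pasted back into the genome. No function is assigned to these 3 here. Serpina1b is 1 of several mouse copies of the gene for alpha-1-antitrypsin, a secreted inhibitor that traps serine proteases such as neutrophil elastase and is known chiefly as a liver product. C5ar1 is the G protein-coupled receptor for the complement fragment C5a, carried by neutrophils, monocytes and macrophages. Nrgn, neurogranin, binds calmodulin when calcium is low and is best known from neurons. Ddit4l, also called Redd2, is a stress-induced inhibitor of the growth kinase complex mTORC1.

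The starts of the 3 non-coding transcripts are shown first, since these RNAs were at or near 0 in the labelled-knockout libraries and carry no established name. All are from GENCODE M21 on GRCm38, 5′ to 3′. No 50-base word of the exons of these 3 genes was found in a transcript of another gene.
Gm46329: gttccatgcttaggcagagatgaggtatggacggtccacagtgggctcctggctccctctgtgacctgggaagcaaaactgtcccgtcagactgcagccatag
2610300M13Rik: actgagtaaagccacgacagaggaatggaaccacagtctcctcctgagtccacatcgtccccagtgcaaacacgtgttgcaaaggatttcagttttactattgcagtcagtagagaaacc
Gm3791: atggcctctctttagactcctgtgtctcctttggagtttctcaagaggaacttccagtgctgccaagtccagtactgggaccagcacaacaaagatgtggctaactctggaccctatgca

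Gm46329 lies on chromosome 12 at 57951211 to 58077436, plus strand, with 609 exon bases, and the line above is chr12:57951211-57951313. 2610300M13Rik lies on chromosome 6 at 66451949 to 66465738, minus strand, with 2077 exon bases, and its line is chr6:66465580-66465699. Gm3791 lies on chromosome 12 at 83875115 to 83875882, minus strand, with 768 exon bases and no intron, and its line is chr12:83875763-83875882. It sits inside Numb, a gene of the same strand, so reads from unspliced Numb RNA would fall on it. Numb itself overlapped between the groups, at 9.71, 10.37 and 7.13 FPKM in the young controls, 13.5, 18.89 and 7.22 in the aged controls, against 10.51, 3.69 and 9.11 in the labelled-knockout libraries.

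Serpina1b lies on chromosome 12 at 103728156 to 103830373, minus strand, with 2415 exon bases. This gene model spans Serpina1d and 3 pseudogenes, RefSeq places the gene's start inside it, and the copies are nearly alike. Over the 1239 coding bases, Serpina1b differed from Serpina1a at 37 positions (97.01% identity), from Serpina1c at 42 (96.61%), from Serpina1d at 43 (96.53%) and from Serpina1e at 46 (96.29%). Of the 2285 words of 50 bases in its exons, 673 (29.5%) also occur in transcripts of other genes, so counting could move reads between copies. The stretch that holds 18 of the 86 variable positions, coding bases 1102 to 1161, is shown because it encodes part of the reactive centre loop, the bait that the target protease cuts. Capitals mark, in Serpina1b, each base at which any other copy differs and, in the other lines, the bases that differ from Serpina1b.
Serpina1b: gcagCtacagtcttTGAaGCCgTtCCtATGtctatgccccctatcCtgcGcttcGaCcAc
Serpina1a: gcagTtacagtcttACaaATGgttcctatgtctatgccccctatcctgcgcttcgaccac
Serpina1c: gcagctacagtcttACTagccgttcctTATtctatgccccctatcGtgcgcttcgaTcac
Serpina1d: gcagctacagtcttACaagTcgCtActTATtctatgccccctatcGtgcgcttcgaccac
Serpina1e: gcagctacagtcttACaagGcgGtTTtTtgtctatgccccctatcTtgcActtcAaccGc

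In this window Serpina1a differed from Serpina1b at 6 bases, Serpina1c at 8, Serpina1d at 9 and Serpina1e at 11. The 5 copies also share the DNA in front of their starts, given here from RefSeq (GRCm38.p6) as 76 bases of the minus strand, because the copies are set side by side in the results. Capitals mark GTTAAT, a half-site of the liver factor HNF1.
Serpina1b: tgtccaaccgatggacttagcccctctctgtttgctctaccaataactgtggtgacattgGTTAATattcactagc
Serpina1a: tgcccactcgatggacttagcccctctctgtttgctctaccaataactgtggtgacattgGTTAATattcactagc
Serpina1c: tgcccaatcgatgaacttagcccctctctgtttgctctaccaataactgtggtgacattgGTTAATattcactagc
Serpina1d: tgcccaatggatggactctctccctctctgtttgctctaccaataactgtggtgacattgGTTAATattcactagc
Serpina1e: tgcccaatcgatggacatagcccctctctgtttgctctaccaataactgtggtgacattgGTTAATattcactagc

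These are chr12:103738200-103738275 for Serpina1b, chr12:103863625-103863700 for Serpina1a, chr12:103904962-103905037 for Serpina1c, chr12:103773634-103773709 for Serpina1d and chr12:103956960-103957035 for Serpina1e. They differed from Serpina1b at 3, 3, 7 and 3 bases in that order of the other copies. GTTAAT was found, on either strand, in the 250 bases before the start of all 5 copies and in 6.43% of 32851 mouse promoters. TATAAA was found in none of the members' promoters, against 12.4% of all. Promoter sequence was matched for 6 of the 7 genes, all but Gm3791. Among the members TGACGTCA, the cAMP response element, was found only in Gm46329, 25 bases before its start, and in 1.55% of all promoters. That promoter is chr12:57950967-57951216, plus strand, with the element in capitals.
Gm46329: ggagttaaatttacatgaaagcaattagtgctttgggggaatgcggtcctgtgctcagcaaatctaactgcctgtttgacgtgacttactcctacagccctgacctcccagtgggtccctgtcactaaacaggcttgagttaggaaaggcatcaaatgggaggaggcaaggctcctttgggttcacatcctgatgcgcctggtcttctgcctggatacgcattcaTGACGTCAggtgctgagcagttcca

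Nrgn lies on chromosome 9 at 37544492 to 37552904, C5ar1 on chromosome 7 at 16246743 to 16259540, both minus strand, and Ddit4l on chromosome 3 at 137621612 to 137628333, plus strand. Nrgn and C5ar1 shared no 50-base word with another gene, and Ddit4l shared 5, or 0.175% of its words.

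Across the 7 genes, the 3 labelled-knockout libraries lay wholly above the 6 controls for 2 (Serpina1b and Nrgn) and wholly below for 4 (Gm46329, 2610300M13Rik, Gm3791 and C5ar1). Among the 11988 genes with at least 1 FPKM in at least 3 libraries, 2.16% lay wholly above and 2.47% wholly below. All 7 members passed that filter, Serpina1b through the labelled-knockout libraries together with 2 young controls. The gap is the distance on log2(FPKM + 1) between the nearest libraries of the 2 sides. Gm46329 had the widest gap below the controls (3.51), followed by 2610300M13Rik (1.63), Gpr176 (1.07), Gm3791 (1.07) and C5ar1 (1.03). Above the controls the order was Serpina1b (1.92), Nrgn (1.07), Pdgfrl (0.926) and Mia (0.919). Gpr176, Pdgfrl and Mia are not among the 7 and are given as the nearest genes outside the choice. For Ddit4l the gap was −0.17, an overlap.

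**Figure D1:**
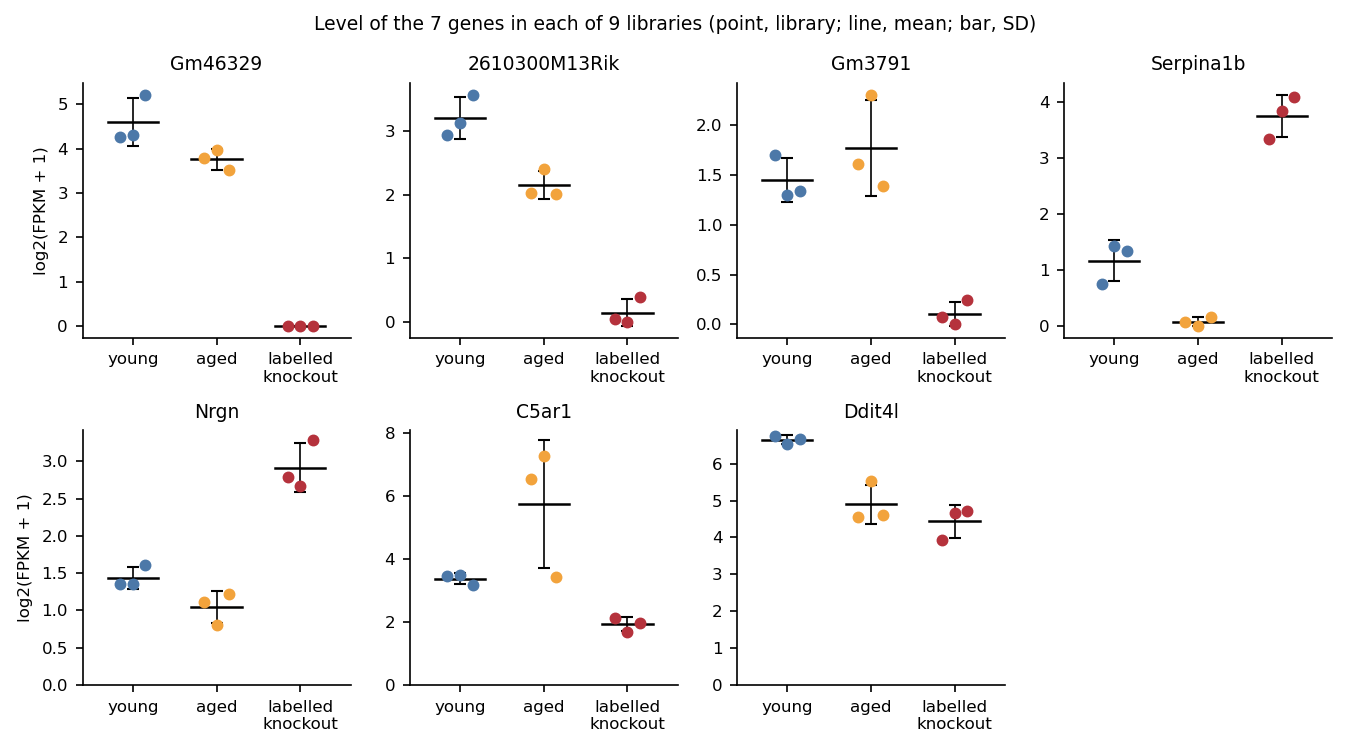
Each panel plots 1 gene as log2(FPKM + 1) in the 9 libraries, in order of replicate number within each group, with the group mean (line) and SD (bar). Gm46329 is at 0 in all 3 labelled-knockout libraries, Serpina1b and Nrgn are higher there than in any control, C5ar1 spreads widely in the aged controls, and Ddit4l overlaps between the aged controls and the labelled-knockout libraries.

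**Figure D2:**
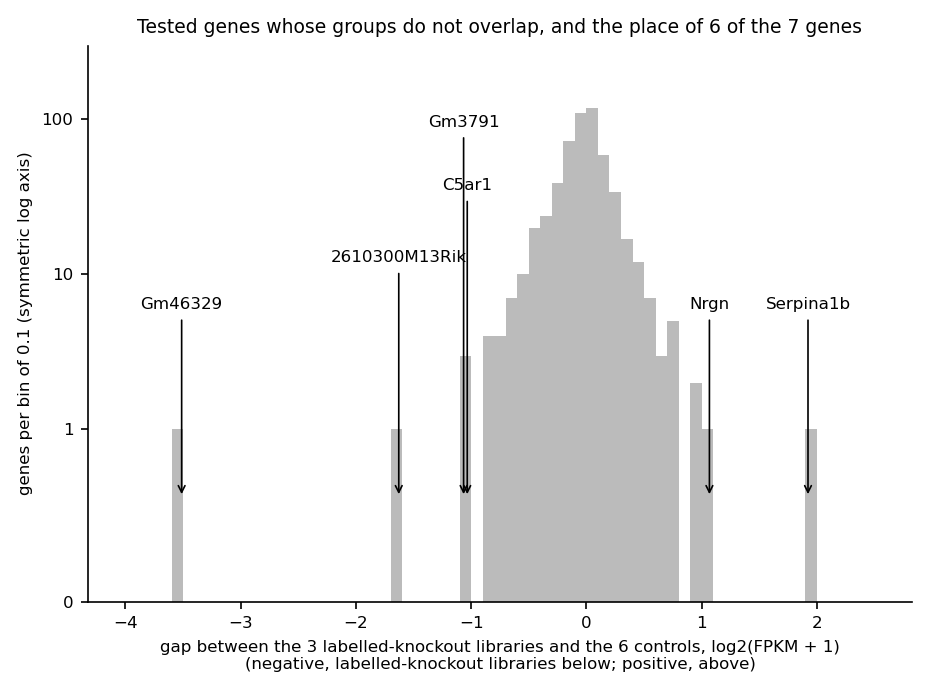
The bars count tested genes, on a symmetric log axis, by the gap between the 3 labelled-knockout libraries and the 6 controls in log2(FPKM + 1), for genes without overlap only. Arrows mark 6 of the 7 genes: Gm46329 (3.51 below) and Serpina1b (1.92 above) stand at the ends, and Gm3791, C5ar1 and Nrgn stand near 1 on their sides.

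Gm46329 was present in every control library and was listed at 0 in all 3 labelled-knockout libraries. Its level was 18.19, 18.78 and 36.31 FPKM in the young controls, 12.78, 14.79 and 10.41 in the aged controls, against 0, 0 and 0 in the labelled-knockout libraries. The control values rest on an estimated 202 to 431 reads in the young and 132 to 248 in the aged libraries. A count of 0 allows up to 0.19, 0.272 and 0.23 FPKM in the 3 labelled-knockout libraries (3 reads per library, counting error only). Against that floor the labelled-knockout mean was at least 54.9-fold lower than that of the aged controls and at least 106-fold lower than that of the young controls. In bulk RNA, fewer cells that make an RNA and less of it per cell cannot be told apart, here and in all results that follow.

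2610300M13Rik followed the same order of groups. It stood at 6.61, 7.70 and 10.87 FPKM in the young controls, 3.06, 4.28 and 3.05 in the aged controls, against 0.04, 0 and 0.31 in the labelled-knockout libraries. The last 3 values come to about 2.16, 0 and 13.8 reads. Over the group, 16 reads against 541 in the aged controls gave a level 29.8-fold higher in the aged controls per unit of depth (95% counting interval 18.2 to 52.6). Replicate 3 holds most of these 16 reads, and without it 2 reads gave a ratio of 161 (44.3 to 1330). That ratio lies outside the first interval. Counting intervals, here and below, leave out the spread between libraries and are not tests. No library of one group overlapped another group.

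Gm3791, the pseudogene inside Numb, was low in all controls and lower still in the labelled-knockout libraries. Its level was 2.26, 1.47 and 1.53 FPKM in the young controls, 2.06, 3.96 and 1.63 in the aged controls, against 0.05, 0 and 0.18 in the labelled-knockout libraries. The last 3 values are about 0.997, 0 and 2.96 reads, 4 in all against 151 in the aged controls, a ratio of 33.3 with a counting interval of 12.8 to 124. Without replicate 3 the ratio rests on 1 read and was 89.9 (15.9 to 3572). Young and aged controls overlapped.

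Serpina1b had the opposite pattern, highest in the labelled-knockout libraries and lowest in the aged controls. It stood at 0.68, 1.68 and 1.52 FPKM in the young controls, 0.05, 0 and 0.12 in the aged controls, against 9.16, 13.31 and 15.96 in the labelled-knockout libraries. The labelled-knockout values rest on 574, 581 and 824 reads, and those of the aged controls on 3.13, 0 and 6.02. The mean of the labelled-knockout libraries was 12.8 ± 3.43 FPKM (SD, n = 3), 9.9-fold that of the young controls. Against the aged controls, 1979 reads over the group compared with 9 gave a ratio of 249 (counting interval 131 to 546). That interval does not cover reads moved between the copies.

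The neighbouring copies were read with Serpina1b. Serpina1a was likewise higher in the labelled-knockout libraries than in all 6 controls: 0.11, 1.38 and 4.15 FPKM in the young controls, 0.38, 0 and 0.50 in the aged controls, against 7.0, 12.72 and 11.63 in the labelled-knockout libraries. Its difference from the aged controls was 3.13 on the log2(FPKM + 1) scale (SE 0.497). No test is given for it, since Serpina1a shares reads with Serpina1b and reached 1 FPKM in only 2 controls, so that it entered the fit through the labelled-knockout libraries.

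Serpina1d was the most abundant copy in most libraries. It stood at 2.45, 4.20 and 15.02 FPKM in the young controls, 1.24, 0 and 2.24 in the aged controls, against 30.38, 2.25 and 41.20 in the labelled-knockout libraries, a difference from the aged controls that did not pass (3.07, SE 0.958, adjusted p = 0.122). Labelled-knockout replicate 2 lay among the controls for this copy, although Serpina1b was at 13.31 FPKM there. Serpina1c stayed at or below 0.30 FPKM in the controls and was 1.32, 0 and 3.11 in the labelled-knockout libraries. Serpina1e was at most 1.92 in any library, and Serpina1f was listed at 0 in all 9.

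Summed over Serpina1a to Serpina1e, which is less exposed to reads moving between copies, the level was 3.82, 9.26 and 21.18 FPKM in the young controls, 1.67, 0.14 and 3.12 in the aged controls, against 48.5, 28.28 and 71.93 in the labelled-knockout libraries. The sums did not overlap between the labelled-knockout libraries and the 6 controls. Serpina1b made up 18.9%, 47.1% and 22.2% of the sum in the labelled-knockout libraries and 7.18% to 18.1% in the young controls. Serpina1d made up 62.6%, 7.96% and 57.3% in the labelled-knockout libraries.

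**Figure D3:**
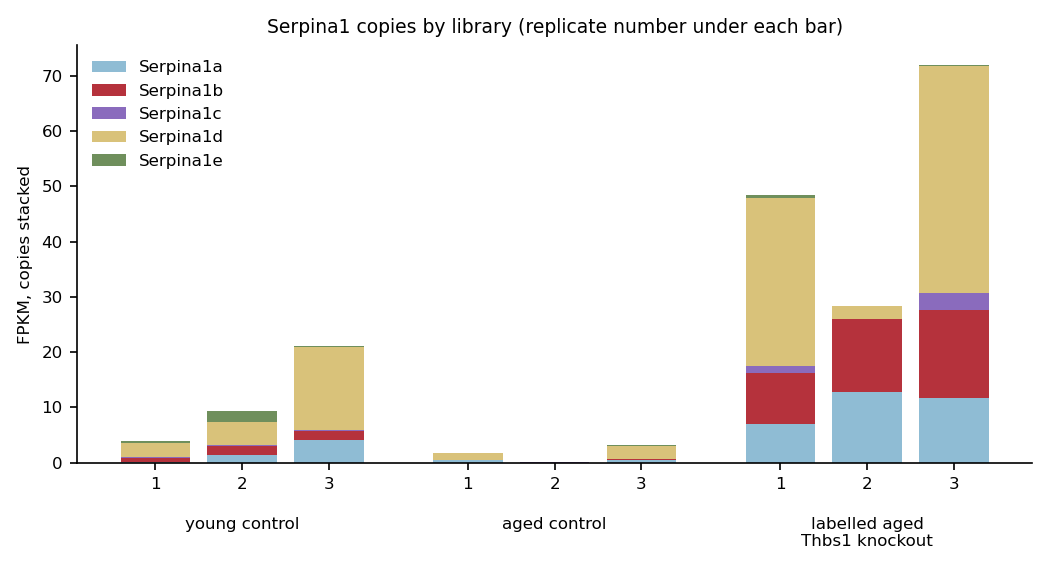
Bars stack the FPKM of Serpina1a to Serpina1e in each of the 9 libraries, with the replicate number below. The 3 labelled-knockout libraries reach 48.5, 28.28 and 71.93 FPKM, above all controls, and the Serpina1d share is small in replicate 2.

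Several markers of hepatocytes were at or near 0 beside the high Serpina1b, and others were not. Of the 9 markers, 1 is Serpina1c itself, Ttr was listed at 0 in every library, Alb was at most 0.28 FPKM and Fgb at most 0.03. Ahsg was at 0.66 to 1.94 FPKM in all libraries. Apoa1 was at 0.65, 0.22 and 0.15 in the labelled-knockout libraries and at most 0.12 in the controls. Apoa2 was at most 0.17 in the labelled-knockout libraries and up to 1.01 in the controls. The summed level of the 9 was almost wholly haptoglobin (Hp). It was 1463 to 1683 FPKM in the young controls, 639.3 to 899.5 in the aged controls and 813.7 to 2341 in the labelled-knockout libraries. Markers of chondrocytes were higher in the labelled-knockout libraries than in the aged controls. The sum of the 8 was 1037, 141 and 2711 FPKM in the labelled-knockout libraries, with replicate 2 inside the range of the young controls. The young controls had 107.1 to 264.6 and the aged controls 12.25 to 15.39. Of 7 tested, 6 passed as higher in the labelled-knockout libraries than in the aged controls. The sum of 8 osteoblast markers was 5058, 1786 and 8336 FPKM in the labelled-knockout libraries, 5738 to 7794 in the young and 1034 to 1892 in the aged controls. Of these 8, 4 passed as higher in the labelled-knockout libraries than in the aged controls and 4 as lower in aged than in young controls. Over all tested genes, 3.48% and 4.04% passed in these 2 comparisons, in either direction. The part of hepatocytes, chondrocytes and osteoblasts in the Serpina1b and Nrgn values was not tested.

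Of the other clade A serpins, protease inhibitors encoded mostly in the same cluster on chromosome 12, few were expressed. Of 22 in the table besides Serpina1b, 7 were tested. Between labelled-knockout libraries and aged controls, where 3.48% of the 11988 tested genes passed, none of the 7 passed apart from Serpina1a, whose entry into the fit is described above. The median log2 difference of the 7 was 0.79 beside 0.07 for all genes. At an unadjusted limma p under 0.05 there were 4, all higher (Serpina1a, Serpina1d, Serpina3n and Serpina12). Serpina3g, an intracellular inhibitor of cathepsins, fell from 209 ± 33.4 FPKM in the young to 82.9 ± 23.7 in the aged controls (SD, n = 3; log2 difference −1.35, adjusted p = 0.0397), and none rose. That call was lost in 11 of 16 alternatives, including both rescalings of the libraries (adjusted p = 0.177 after median-ratio rescaling and 0.0519 after quantile normalization). The median of the list between aged and young controls was −0.88 beside −0.28 for all genes. In that comparison 3 had an unadjusted limma p under 0.05, all lower (Serpina3c, Serpina3g and Serpina12).

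Serine proteases of neutrophil granules are classic targets of such inhibitors. Ctsg, cathepsin G, stood at 0.05, 0 and 0.49 FPKM in the young controls, 24.81, 24.55 and 2.51 in the aged controls, against 0, 1.54 and 0 in the labelled-knockout libraries. Ctsg entered the fit through the aged controls, where it was high, and its differences are given without a test: 3.51 (SE 0.727) between aged and young controls and −3.28 between labelled-knockout libraries and aged controls. Of the 3 proteases 2 were tested, and Prtn3 passed in neither comparison. Elane, neutrophil elastase, was at or below 0.73 FPKM outside the aged controls and reached 17.86 in aged control replicate 3.

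C5ar1 was lowest in the labelled-knockout libraries and varied most among the aged controls. It stood at 10.11, 10.28 and 7.99 FPKM in the young controls, 92.87, 153.05 and 9.83 in the aged controls, against 3.39, 2.24 and 2.88 in the labelled-knockout libraries. Aged control replicate 3 lay within the range of the young controls, while the other 2 aged controls were far above. The mean of the labelled-knockout libraries, 2.84 ± 0.576 FPKM, was 3.33-fold lower than that of the young controls and 30.1-fold lower than that of the aged controls, a mean that 2 libraries set.

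The other receptors of complement fragments did not separate the labelled-knockout libraries from all 6 controls. C5ar2, the second C5a receptor, 2.6 kb from C5ar1 on the chromosome, was at 8.56, 8.27 and 6.38 FPKM in the young controls, 4.44, 6.82 and 2.17 in the aged controls, against 6.38, 1.36 and 3.32 in the labelled-knockout libraries, with overlap throughout and no call (adjusted p = 0.356 for age and 0.775 against the aged controls). C3ar1, the receptor for C3a, was at 0, 0.10 and 0.21 FPKM in the young controls, 18.62, 34.21 and 1.74 in the aged controls, against 0, 0 and 0.19 in the labelled-knockout libraries. It was at or above 1 FPKM in the aged controls alone and entered the fit through them, so no test is given. The log2 differences were 3.49 (SE 0.757) between aged and young controls and −3.55 (SE 0.757) between labelled-knockout libraries and aged controls. Unlike C5ar1, C3ar1 did not separate the labelled-knockout libraries from the young controls.

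Pan-leukocyte markers moved with both receptors in the aged controls, while the sums of neutrophil and of monocyte markers did not. The sum of 8 pan-leukocyte markers was 684.4, 845.2 and 126 FPKM in the 3 aged controls, 4.77 to 9.71 in the young controls and 3.04, 57.95 and 19.32 in the labelled-knockout libraries. Ptprc, the CD45 gene, was at 2.99, 4.14 and 0.36 FPKM in the aged controls and at or below 0.15 in all other libraries, and Cxcr2, a neutrophil receptor, was at 24.31, 36.15 and 2.19 in the aged controls and at or below 0.30 elsewhere. The order of the aged controls in the pan-leukocyte sum, Ptprc and Cxcr2, replicate 2 then 1 then 3, was that of C5ar1 and C3ar1. Between young controls and labelled-knockout libraries the sum ran the other way: C5ar1 was lower in the labelled-knockout libraries, while 2 of the 3 had a higher sum than any young control. Most of that sum was Cd53 (30.59 and 10.06 FPKM in labelled-knockout replicates 2 and 3) and Rac2 (18.86 and 2.28). The other markers, except Coro1a, were also above every young control in replicate 2. Coro1a was at 1.47, 0.75 and 2.84 FPKM in the labelled-knockout libraries and 2.16 to 2.9 in the young controls. The sum of 11 neutrophil markers was 24.53 to 82.87 FPKM in the labelled-knockout libraries and 93.03 to 312.6 in the 6 controls, without overlap. In the aged controls this neutrophil sum was 278.2, 93.03 and 242.8, lowest in replicate 2, where C5ar1 was highest. S100a8 (75.84, 6.15 and 78.52) and most other neutrophil markers were also lowest there, unlike Cxcr2 and Retnlg. The sum of 10 monocyte and macrophage markers was 16.72 to 37.45 FPKM in the young controls and 599, 124.3 and 956.7 in the aged controls. In the labelled-knockout libraries it was 17.79, 813.9 and 103.9. Where high, this sum was mostly Ly6c2. Ccr2 (8.09, 10.04 and 0.60 in the aged controls) and Adgre1, of the same list, had the order of C5ar1 there. The part of leukocytes, neutrophils and monocytes in the C5ar1 values was not tested.

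Of the 10 other genes listed with C5ar1 as receptors, ligands and couplers, 7 were tested, and apart from C3ar1 none passed in either comparison. Arrb2 had an unadjusted limma p under 0.05 in both, higher with age and lower in the labelled-knockout libraries than in the aged controls. It was at 4.59, 5.09 and 4.42 FPKM in the young controls and 45.49, 65.38 and 7.32 in the aged controls. The labelled-knockout libraries had 4.21, 0.54 and 5.7. C3, the source of C3a, was at 102.44 to 284.61 FPKM in all 9 libraries and passed in neither. Hc, the gene for C5 itself, was listed at 0 in 8 libraries and at 0.02 in the other. The median of the 7 was 0.01 between aged and young controls and −0.10 between labelled-knockout libraries and aged controls.

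**Figure D4:**
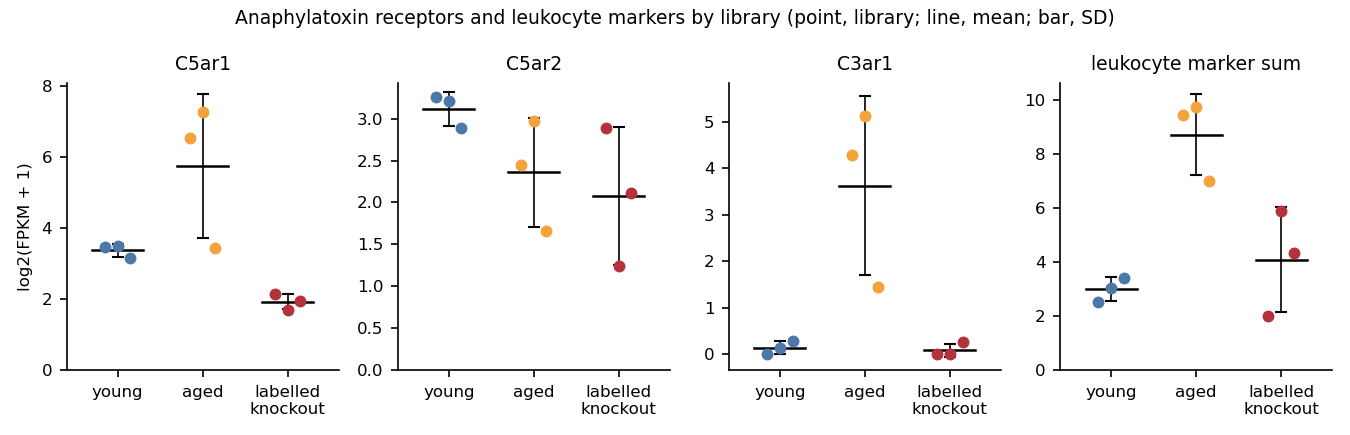
Panels plot C5ar1, C5ar2, C3ar1 and the sum of 8 pan-leukocyte markers as log2(FPKM + 1) in the 9 libraries, with the group mean (line) and SD (bar). In the aged controls the order of C5ar1 and C3ar1 is that of the marker sum, and of the 3 receptors only C5ar1 is below all controls in the labelled-knockout libraries.

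Nrgn was higher in the labelled-knockout libraries than in any control. It stood at 1.55, 1.55 and 2.04 FPKM in the young controls, 1.17, 0.75 and 1.32 in the aged controls, against 5.90, 5.37 and 8.80 in the labelled-knockout libraries. The means were 1.71 ± 0.283, 1.08 ± 0.296 and 6.69 ± 1.85 FPKM (SD, n = 3), so the labelled-knockout libraries were 6.19-fold the aged and 3.9-fold the young controls. The 2 young controls at 1.55 and the aged control at 1.32 lay close to each other.

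No gene listed with Nrgn passed in either comparison. Its closest relatives among small calmodulin-binding proteins, Gap43 and Pcp4, were at most 0.36 FPKM in any library. Calm2, the most abundant of the 3 calmodulin genes, was at 485.86 to 780.51 FPKM in the young controls, 295.51 to 515.4 in the aged controls and 326.04 to 696.97 in the labelled-knockout libraries. Of 19 listed genes besides Nrgn, 12 were tested and 0 passed in limma, with 1 in each comparison at an unadjusted p under 0.05 (Pcp4l1, lower with age and higher in the labelled-knockout libraries). The medians were −0.24 for age and −0.09 against the aged controls.

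Markers of neurons and glia differed among themselves. Snap25, Syt1 and Rbfox3, of neurons, were at or below 0.07 FPKM in all 9 libraries, and Map2 was at most 0.18. Tubb3 was at 0.04 to 1.89 FPKM, without separating the groups. Camk2a was at 0.76 in labelled-knockout replicate 2 and at most 0.17 in the other libraries. The sum of the 9 markers was 40.29, 126.1 and 61.35 FPKM in the labelled-knockout libraries, 57.78 to 96.09 in the young controls and 27.14, 43.43 and 31.98 in the aged controls. Most of it was S100b, at 39.88, 123.5 and 59.51 in the labelled-knockout libraries and 25.16 to 40.39 in the aged controls. Nrgn is also known from platelets. The sum of 8 megakaryocyte and platelet markers was 9.73, 11.12 and 29.57 FPKM in the labelled-knockout libraries and 30.87 to 85.49 in the 6 controls. Within the labelled-knockout libraries the highest Nrgn and the highest platelet sum were both in replicate 3, and within the young controls likewise. Within the aged controls Nrgn was also highest in replicate 3, but the platelet sum was lowest there (76.24, 57.15 and 44.6 FPKM). The part of these cells in the Nrgn values was not tested.

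Ddit4l did not separate the labelled-knockout libraries from the controls. It stood at 106.53, 91.75 and 101.50 FPKM in the young controls, 22.46, 44.78 and 23.53 in the aged controls, against 14.17, 24.34 and 25.41 in the labelled-knockout libraries. The aged controls and the labelled-knockout libraries overlapped, with means of 30.3 ± 12.6 and 21.3 ± 6.2 FPKM, and both were below every young control. The young mean, 99.9 ± 7.52 FPKM, was 3.3-fold that of the aged controls and 4.69-fold that of the labelled-knockout libraries. Because it may have been the difference with age that brought Ddit4l into the choice, that difference is given without a test (−1.76 on the log2 scale, SE 0.32).

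Its relative Ddit4, the other stress-induced inhibitor of mTORC1, did not share this order. Ddit4 was at 38.88, 31.39 and 31.08 FPKM in the young controls, 73.66, 136.62 and 21.12 in the aged controls, against 53.67, 112.35 and 38.48 in the labelled-knockout libraries, and passed in neither comparison (adjusted p = 0.473 and 0.983). Of 21 listed genes of mTORC1 and its inhibitors besides Ddit4l, 20 were tested. Eif4ebp1, a repressor of translation that mTORC1 switches off, fell from 43.2 ± 12.5 FPKM in the young to 18.6 ± 1.90 in the aged controls (−1.14, adjusted p = 0.0409), and the call was lost in 12 of 16 alternatives. None of the other genes passed, and in the labelled-knockout libraries against aged controls 0 passed in limma, with 6 at an unadjusted p under 0.05, 5 of them higher. The medians were −0.36 and 0.18.

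The rule sets the labelled-knockout libraries beside all controls, and does not name the difference between aged and young controls. Whether that difference entered the choice of the 7 genes is not known, so the tests of 5 genes that follow are to be read with that limit. The comparison shares the aged controls with the description above. Of the 7 genes, 5 had all 3 aged controls below all 3 young controls (Gm46329, 2610300M13Rik, Serpina1b, Nrgn and Ddit4l), as had 37.4% of all tested genes. In limma, 4.04% of the 11988 genes passed in either direction. 2610300M13Rik passed: it fell by 1.06 on the log2 scale (SE 0.247, adjusted p = 0.0484), from 8.39 ± 2.21 to 3.46 ± 0.707 FPKM (SD, n = 3), with 3 of 3 aged controls below every young control. The call was lost in 13 of 16 alternatives (adjusted p from 0.0129 to 0.28), including the median-ratio rescaling (−0.75, adjusted p = 0.123) and each of the 6 fits without 1 control library.

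Serpina1b is given without a test, since it reached 1 FPKM in only 2 controls and entered the fit through the labelled-knockout libraries. Its 175 reads over the young controls and 9 over the aged controls gave a ratio of 25.4 (counting interval 13.1 to 56.6), with a log2 difference of −1.09 (SE 0.269). The other 4 did not pass. For Gm46329 the difference was −0.84 (SE 0.285, adjusted p = 0.133), and it passed only without labelled-knockout replicate 2 (adjusted p = 0.0499). For C5ar1 it was 2.37 (SE 0.799, adjusted p = 0.129), and without aged control replicate 3 it was 3.53 with an adjusted p of 0.00061. Gm3791 (0.32, SE 0.271, adjusted p = 0.522) and Nrgn (−0.39, SE 0.239, adjusted p = 0.381) passed in no alternative.

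Of the 7 genes, 3 lie on chromosome 12, far from each other. The nearest measured gene outside the GENCODE model was examined on either side of each member. Of these 14 neighbours only Serpina1a, 23.2 kb beyond the long Serpina1b model, separated the labelled-knockout libraries from the controls. Serpina1d lies inside that model, nearer than Serpina1a to the RefSeq start of Serpina1b. It was therefore not counted as a neighbour, and it overlapped the controls. Siae, 2.8 kb from Nrgn, was at 4.27 to 6.9 FPKM in the controls and at 6.31, 11.42 and 7.22 in the labelled-knockout libraries. Within 1 Mb of each member, 0 of 9 tested genes separated the groups around 2610300M13Rik, 0 of 29 around C5ar1, 0 of 13 around Nrgn, 1 of 7 around Gm46329 (Pnn), 1 of 11 around Ddit4l (Ppp3ca), 1 of 21 around Gm3791 (Rbm25) and 2 of 17 around Serpina1b (Serpina1a and Serpina3n). Together these are 5 of 107 (4.67%), close to the 4.63% of all tested genes that separated the groups in either direction.

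The genes most like each member across the 9 libraries were taken by Pearson correlation of log2(FPKM + 1) over all tested genes. These are descriptions over 9 points that share their group structure and scaling. Gm46329 was most like Rbm25 (r = 0.972), an RNA-binding splicing factor, and Bdp1 (0.968), a subunit of the RNA polymerase III initiation factor. 2610300M13Rik was most like Bdp1 (0.986) and Gm4951 (0.969). For Gm3791, Zfp638 is given (0.979). Rbm25 stood at 4.44, 4.33 and 7.12 FPKM in the young controls, 3.95, 5.44 and 4.21 in the aged controls, against 1.78, 1.77 and 1.84 in the labelled-knockout libraries. Bdp1 was at 0.97 to 1.89 FPKM in the 6 controls and 0.28, 0.26 and 0.46 in the labelled-knockout libraries. These genes were lower in the labelled-knockout libraries but, unlike Gm46329, were read there.

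Serpina1b and Nrgn shared their nearest gene, Pdgfrl (r = 0.969 and 0.982), which encodes a protein resembling the platelet-derived growth factor receptor. Pdgfrl stood at 1.98, 1.91 and 2.40 FPKM in the young controls, 1.18, 1.34 and 2.03 in the aged controls, against 5.46, 6.99 and 10.03 in the labelled-knockout libraries. The next were Col15a1 (0.961), a basement membrane collagen, for Serpina1b and Mia (0.959), a secreted cartilage protein, for Nrgn. C5ar1 was most like Zc3hav1 (0.986), an antiviral protein that binds viral RNA, and Dock10 (0.986), an activator of small GTPases. Dock10 was at 4.01, 6.66 and 1.75 FPKM in the aged controls and at 0.41 to 1.59 elsewhere. Ddit4l was most like Pik3r1 (0.978), a regulatory subunit of phosphoinositide 3-kinase, at 31.95 to 36.28 FPKM in the young controls and 13.43 to 22.94 in the other 6 libraries, and Stxbp4 (0.97).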

How the data were processed

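RNA sequencing of sorted marrow stromal cells gave 9 libraries in 3 groups of 3, assigned from the genotype label. The authors deposited FPKM for 30579 genes, rounded to 2 decimals. Tools named in the submitters' processing notes are STAR, edgeR and FastQC 0.11.5, with the build GRCm38 (mm10) and no roles. For the annotation, the counter, the use of strand and reads that match several genes, the entry is: not given in the sources used here.

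Both the 7 genes and the 5 pathway and 13 marker lists were chosen with earlier results of these data known. Gene symbols were matched to GENCODE M21 for 30192 genes (98.7%). The step between low FPKM values of genes up to 600 bases, sought between 2 and 60 M reads (M, mega), gave each library's depth. At that step 99.3% to 100% of 136 to 499 low values per library (up to 12 reads) were whole within 0.1 reads. Read numbers are FPKM times that depth and the exon length; counting intervals are exact, from the binomial split of reads between groups, and cover counting error only.

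Tests used limma 3.58.1 in R 4.3.3 with an intensity trend on log2(FPKM + 1), for the 11988 genes with at least 1 FPKM in at least 3 libraries. A single fit of 3 group means held the 9 libraries (6 residual degrees of freedom), with Benjamini-Hochberg adjustment over all genes and a threshold of 0.05. Added to a low level, the pseudocount makes a difference look smaller. The procedure was also run on simulated data with independent noise. Those data had no library that stands apart, so the run does not bear on how far the calls depend on single libraries. The text names the 7 genes, Thbs1, listed genes that passed, close paralogs, the nearest genes on the chromosome and the 2 genes most alike over the libraries (1 of those for Gm3791 is not reported here); a few other genes (Gpr176, Pdgfrl, Mia, Rbm25, marker genes and members of the lists that did not pass) were named after their values were seen. Promoters came from RefSeq on GRCm38.p6 and the 50-base words and coding sequences from GENCODE M21 transcripts. Other steps ran in Python 3.11.15 (scipy 1.17.1, pandas 2.3.3, numpy 2.4.6), with figures from matplotlib 3.10.9.

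Replicate numbers did not pair the libraries. Other settings tried were quantile normalization and median-ratio rescaling of the libraries, a filter at 5 FPKM or none, a pseudocount of 0.1, the compared groups fitted alone, a block on replicate number, and omission of every library once.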

Additional observations from a re-analysis of the deposited data

How the results depend on the processing

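The 6 members without overlap between the labelled-knockout libraries and the 6 controls also had none after median-ratio rescaling and after quantile normalization. Leaving out a library cannot create an overlap, so those alternatives do not bear on it. The log2 differences of these 6 members from the aged controls kept their sign after both rescalings. None of the other alternatives could reverse the sign between groups without overlap, so they do not bear on it. With a pseudocount of 0.1 these differences from the aged controls grew to −6.98 for Gm46329, −4.30 for 2610300M13Rik, −3.94 for Gm3791, 6.40 for Serpina1b and 2.53 for Nrgn, from −3.76, −2.0, −1.67, 3.68 and 1.87. The number of genes called depended far more on the fit. Between aged and young controls it was 484, 138 with no filter, 2155 with only the compared groups, and 4 (without aged control replicate 1) to 2729 (without labelled-knockout replicate 2) with 1 library left out. It was 17 to 36 without any 1 young control and 197 without aged control replicate 2. Between labelled-knockout libraries and aged controls it was 417, 92 with no filter, 199 with a minimum of 5 FPKM, 14 with only the compared groups, and 13 (without aged control replicate 1) to 1895 (without labelled-knockout replicate 2). It was 31 to 108 without any other library except aged control replicate 3. The cause was not tested. The Thbs1 difference, −0.15, ran from −0.33 to 0.094 with 1 library left out and changed sign only without labelled-knockout replicate 1 (0.0939). The replicate number as a block gave 120 and 64 calls. Deviations of same-numbered libraries correlated at −0.14, 0.08 and 0.06 (aged with young) and −0.21, −0.14 and −0.01 (labelled knockout with aged), and only aged control replicate 3 matched its own number best, so the numbers are not taken as pairs. Under the block the calls of 2610300M13Rik (adjusted p = 0.106), Serpina3g (0.101) and Eif4ebp1 (0.107) were lost. Near 0 the depth limits a value to steps of 1 read, and 3 reads are 0.19 to 0.272 FPKM for Gm46329 in the labelled-knockout libraries.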

Other observations

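Several genes that are not among the 7 were also low in the labelled-knockout libraries and clear of all 6 controls. They were singled out after their values were seen, and no test is given. Zfp958, a zinc finger gene, was at 1.24 to 2.07 FPKM in the 6 controls and at 0.28, 0.23 and 0.24 in the labelled-knockout libraries. Mpp7, a scaffold protein of cell junctions, was at 1.39 to 2.31 FPKM in the controls and at 0.11, 0.01 and 0.34 in the labelled-knockout libraries. Haus3, a subunit of the augmin complex that seeds microtubules in the spindle, was at 3.01 to 5.69 FPKM in the controls and at 0.71, 0.79 and 1.32 in the labelled-knockout libraries. Gpr176, an orphan G protein-coupled receptor, was at 17.46 to 32 FPKM in the controls and at 7.02, 6.66 and 7.80 in the labelled-knockout libraries.

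On the other side, Pcolce2, an enhancer of procollagen processing, was at 1.86 to 5.68 FPKM in the controls and at 33.16, 10.47 and 61.96 in the labelled-knockout libraries. Hbegf, a growth factor that binds the EGF receptor, was at 5.36 to 10.47 FPKM in the controls and at 21.31, 18.41 and 27.32 in the labelled-knockout libraries. Has1, a hyaluronan synthase, was at 1.54 to 5.60 FPKM in the controls and at 9.90, 16.77 and 13.60 in the labelled-knockout libraries.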
